A study of Drosophila melanogaster with 6 samples.

Results

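Glutathione S-transferases (Gst genes) and UDP-glycosyltransferases (Ugt genes) are the 2 large families of conjugating enzymes in the fly. The members described here are the probe sets paired with exactly 1 gene whose current symbol starts with Gst or Ugt: 36 Gst probe sets for 34 genes and 35 Ugt probe sets for 33 genes, together 71 of the 13966 probe sets for transcripts on the array, and 67 of its 10844 genes with a probe set of their own. RefSeq lists 35 genes in each family. GstT1, Ugt50B3 and Ugt35D1 were not analysed here. None of the 327 probe sets paired with several genes held a Gst or Ugt name.

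Whole-body RNA of Drosophila melanogaster males was measured on 6 one-colour Affymetrix arrays, 3 for exposed and 3 for unexposed males, to ask which transcripts change in level during a few minutes of courtship. All males were virgin, 4 days old and of the wild-type Canton-S strain, and each array carried 1 pool of about 12 males. Exposed males spent 5 min with a virgin female, and those that courted vigorously without mating were kept. Unexposed males were handled in the same way with no female, and no selection by behaviour was described for them, so exposure and the choice of courting males cannot be told apart. In whole-body RNA, fewer cells of a type and less RNA per cell cannot be told apart either.

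Glutathione S-transferases join the tripeptide glutathione to reactive or poorly soluble compounds, and the Delta and Epsilon classes are the insect classes most often tied to detoxification of insecticides and plant toxins. UDP-glycosyltransferases move a sugar from a UDP-sugar, in insects mostly glucose, onto small lipophilic molecules such as plant compounds, hormones, pigments and odorants. Both families act in the gut, Malpighian tubules and fat body, and some members are made in the antennae, where they have been studied as odorant-clearing enzymes.

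Signals are the deposited intensities, and a difference is given as the log2 ratio of exposed over unexposed pools that carry the same replicate number, here called pairs 1, 2 and 3. A probe set was tested if its signal reached 100 on at least 3 of the 6 arrays, and 8251 probe sets (59.1%) did so. The test was limma's moderated paired test, with Benjamini-Hochberg adjustment over all 8251. The median log2 ratio over these probe sets was -0.086, so a typical probe set lay slightly below 0 before any family was considered. A total of 29 Gst probe sets (27 genes) and 21 Ugt probe sets (19 genes) passed the filter. On every one of the 6 arrays, 21 Gst and 12 Ugt probe sets reached 100, whereas 4 Gst and 12 Ugt probe sets reached it on none.

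The replicate 1 arrays stood apart from the other 4. The 3′ over 5′ signal of the actin control was 17.8, 2.26 and 2.19 on exposed arrays 1 to 3, against 5.79, 2.36 and 2.27 on unexposed arrays 1 to 3, and the eIF-4a control gave 11.3, 1.80 and 1.65 on exposed arrays against 2.0, 1.95 and 1.66 on unexposed arrays. Ratios of this kind are read as a sign of RNA length and labelling. The summed signal of 7 ovary markers, all above 0 on every array, was 8256, 3204 and 2774 on exposed arrays and 8391, 3299 and 2793 on unexposed arrays. Summed signals of 5 male accessory gland markers lay between 17346 and 19739 on all 6 arrays, and labelling was done at either of 2 facilities, with the facility of each array not given in the sources used here. Median array signals ranged from 107 to 133. The median signal of 23 control probe sets for foreign sequences was 80.1, 31.3 and 25.3 on exposed arrays and 81.0, 22.9 and 27.2 on unexposed arrays. Rows listed at 0 numbered 364, 57 and 57 on exposed arrays and 195, 49 and 82 on unexposed arrays. Both replicate 1 signals of several members, among them GstE2, GstD5 and GstZ2, lay below these control medians. Their pair 1 ratios are therefore ratios of signals near the floor.

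No member of either family passed an adjusted p under 0.05 in the limma fit, and no probe set on the array did (0.0%). At an unadjusted p under 0.05, limma called 0 of 29 Gst probe sets and 1 of 21 Ugt probe sets, which was higher in exposed males. Over all probe sets tested, 2.5% were called at that level, 0.376% higher and 2.12% lower in exposed males. This split of 31 higher and 175 lower became 146 and 120 under quantile normalization and 127 and 102 under median centring. Cyber-T's paired test, the kind named in the methods and written anew here, gave 0 Gst and 1 Ugt calls at an unadjusted p under 0.05. Over all 8251 probe sets tested, it called 37 higher and 281 lower in exposed males. No member reached an unadjusted p under 0.001 (0.0242% of all). No member had its 3 exposed signals all above its 3 unexposed signals (0.255% of all) or all below them (1.76% of all). Exposed and unexposed signals thus overlapped for every member. Where both replicate 1 pools lie on the same side of the other 4, the groups cannot separate whatever the exposure did. Both lay below for 24 and above for 4 of 29 tested Gst probe sets, and for 14 and 7 of 21 tested Ugt probe sets. For these, the overlap says nothing about exposure.

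In the Gst family, the median log2 ratio was 0.018, and 16 of 29 means lay above 0 and 13 below. By pair, the Gst medians were -0.17, 0.093 and 0.16. Over all 8251 probe sets the medians by pair were -0.21, -0.083 and 0.054. In pair 1, 6 of 29 Gst probe sets were higher in exposed males (25.2% of all), in pair 2, 20 of 29 (36.8% of all), and in pair 3, 22 of 29 (59.9% of all). Pairs 2 and 3 were both higher for 15 of 29 (21.5% of all) and both lower for 2 of 29 (24.8% of all). The combination of a lower signal in pair 1 with higher signals in pairs 2 and 3 was found for 12 of 29 Gst probe sets, against 15.2% of all. The sign of the family median rests on single pairs: it was 0.10 without replicate 1, -0.061 without replicate 2 and -0.070 without replicate 3.

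In the Ugt family, the median log2 ratio was 0.055, with 15 of 21 means above 0 and 6 below. The medians by pair were 0.10, 0.019 and 0.075. In exposed males of pairs 1, 2 and 3, 13, 11 and 15 of 21 probe sets were higher (25.2%, 36.8% and 59.9% of all). Pairs 2 and 3 were both higher for 9 of 21 (21.5% of all) and both lower for 4 (24.8% of all). A higher signal in pairs 1 and 3 with a lower one in pair 2 was seen for 3 Ugt and 3 Gst probe sets, against 8.7% of all. The Ugt median was 0.065 without replicate 1, 0.089 without replicate 2 and 0.046 without replicate 3.

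A higher signal in the exposed pool of all 3 pairs was found for 3 Gst probe sets (GstE3, GstE8 and GstE9) and 5 Ugt probe sets (the second of Ugt35B1, and Ugt35C1, Ugt36E1, Ugt37E1 and Ugt316A1), against 6.23% of all. A lower signal in all 3 pairs was found for 2 Gst probe sets (GstE10 and GstE14) and 1 Ugt probe set (Ugt37D1), against 18.4% of all. The mean log2 ratios of these 11 probe sets ranged from -0.26 for GstE14 to 0.39 for Ugt35B1.

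**Figure D1:**
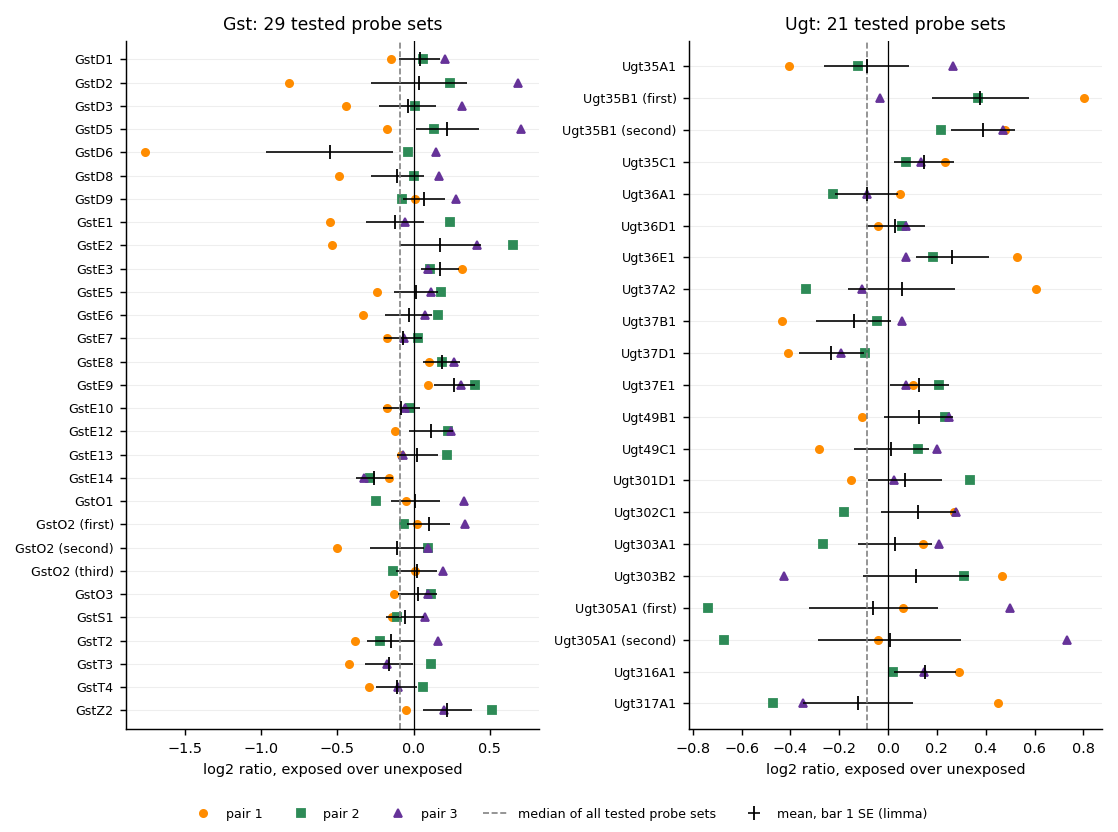
Log2 ratio of exposed over unexposed signal (x axis) for each tested Gst (left) and Ugt (right) probe set, with pairs 1, 2 and 3 as separate symbols, the mean with a bar of 1 SE from limma, and the median of all tested probe sets (-0.086) dashed. Pair 1 lies left of 0 for 23 of 29 Gst probe sets, as for 6136 of the 8251 tested, and GstD6 reaches -1.76 there.

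The Epsilon class is the largest Gst class of the fly, with 14 genes on the array, 10 of which form a cluster on chromosome arm 2R. Of the 14 probe sets, 12 were tested. Their median log2 ratio was 0.021. In exposed males, 3 of 12 were higher in pair 1 (25.2% of all), 10 of 12 in pair 2 (36.8% of all) and 7 of 12 in pair 3 (59.9% of all). GstE9 had the highest mean of the tested Gst probe sets. Its signals were 1023, 2284 and 2338 in exposed males and 960, 1731 and 1884 in unexposed males. Each exposed pool exceeded its partner, and the groups overlapped because both replicate 1 pools were low. The mean log2 ratio was 0.27 (SE 0.13, limma adjusted p = 0.905).

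Its neighbour GstE8 and GstE3, another gene of the same cluster, which like the other Epsilon members conjugate electrophiles, also had the exposed pool higher in each pair. GstE8 had 101.1, 412 and 441 in exposed males and 94.3, 362 and 368 in unexposed males, a mean log2 ratio of 0.18 (SE 0.12). GstE3 had 1308, 2207 and 2229 in exposed males and 1049, 2046 and 2090 in unexposed males, a mean of 0.17 (SE 0.13). In each case the groups overlapped. GstE10, at the end of the same cluster, was the most evenly measured Gst probe set (SE 0.12), with 77.2, 191 and 208 in exposed males and 86.9, 194 and 215 in unexposed males. Its mean log2 ratio of -0.082 changed sign when the arrays were scaled to a common distribution or median (0.028 and 0.025).

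GstE2 gave opposite signs in different pairs. Its signals were 33.9, 171 and 192 in exposed males and 49.1, 109 and 144 in unexposed males, with pair ratios of -0.54, 0.65 and 0.42 and a mean of 0.18 (SE 0.27). The exposed pools of replicates 2 and 3 were both above all 3 unexposed pools, while the exposed pool of replicate 1 was the lowest of the 6. GstE1, which lies between GstE10 and GstE2, had 186, 588 and 599 in exposed males and 272, 499 and 622 in unexposed males, with a mean of -0.12 (SE 0.19) that became 0.091 without replicate 1. The remaining tested members of the 10-gene cluster, GstE5, GstE6 and GstE7, had means between -0.067 and 0.018. GstE4 fell short of the filter with signals between 90.3 and 122.

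Of the Epsilon genes outside the cluster, GstE14 is the one with a known developmental role: it is also called nobo and is needed in the prothoracic gland of the larva for ecdysteroid synthesis from cholesterol. Its signals were 840, 173 and 164 in exposed males and 941, 210 and 205 in unexposed males. The exposed pool was the lower in each pair, by log2 ratios of -0.16, -0.28 and -0.32, but both replicate 1 pools were far above the other 4. The mean log2 ratio was -0.26 (SE 0.12, limma adjusted p = 0.905). GstE12 and GstE13 had means of 0.11 and 0.024, and GstE11, below the filter, had 37.7, 96.8 and 122 in exposed males and 37.1, 81.5 and 92.7 in unexposed males.

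**Figure D2:**
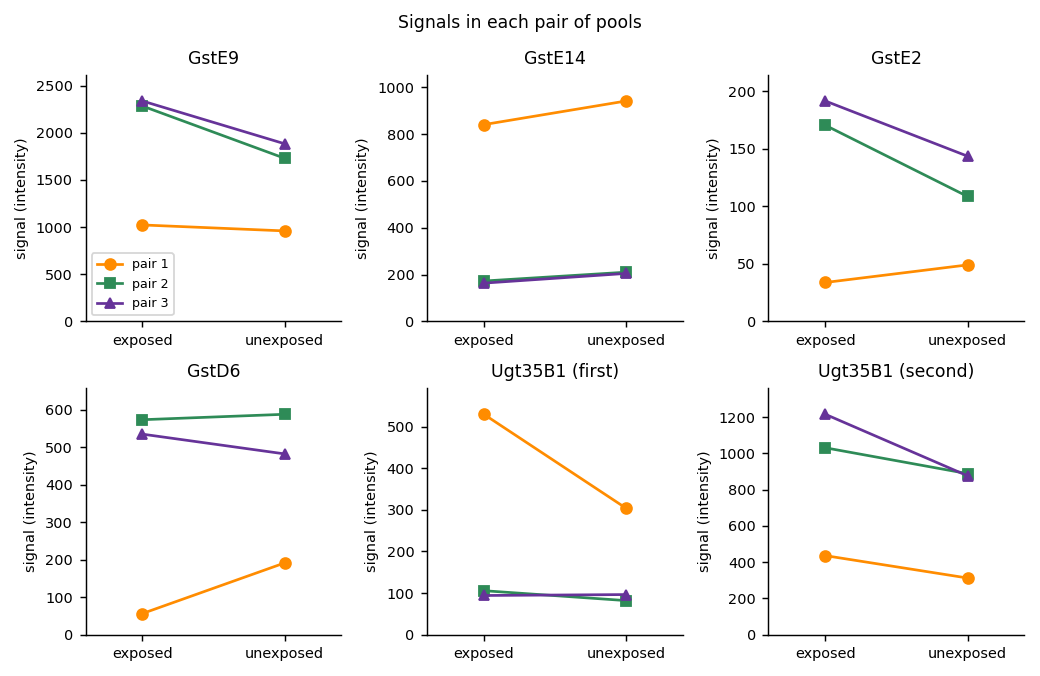
Signal (intensity, linear axis from 0) of GstE9, GstE14, GstE2, GstD6 and both probe sets of Ugt35B1 in exposed (left) and unexposed (right) pools, with a line joining the pools of each pair. The replicate 1 pools lie far below the others for GstE9, GstE2, GstD6 and the second Ugt35B1 probe set and far above them for GstE14 and the first.

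The 11 Delta class genes form 1 run on chromosome arm 3R, and each had a probe set, 7 of which were tested. In pair 3, 7 of 7 were higher in exposed males (59.9% of all), and in pair 2, 5 of 7 (36.8% of all). In pair 1, 6 of 7 were lower and 1 was higher (25.2% of all). The class medians by pair were -0.44, 0.0099 and 0.28. GstD1, the enzyme best known for breaking down DDT and a common reporter of oxidative stress signalling, had 5093, 6038 and 6600 in exposed males and 5651, 5776 and 5725 in unexposed males. The exposed signals held both the lowest and the 2 highest of the 6 values, and the SD over the 3 pools was 762 in exposed males and 62.9 in unexposed males. The mean log2 ratio was 0.040 (SE 0.14), and -0.043 without replicate 3.

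GstD6 had the lowest mean of the tested Gst probe sets, through 1 pool. Its signals were 56.6, 573 and 535 in exposed males and 191, 588 and 482 in unexposed males. The value in exposed pool 1 lay below the median of the foreign control probe sets on that array (80.1). The mean log2 ratio of -0.55 (SE 0.42) was 0.057 without replicate 1. GstD2, a Delta enzyme encoded near GstD1, spread widely over pairs. Its signals were 248, 132 and 206 in exposed males and 436, 112 and 128 in unexposed males. Its pair ratios were -0.81, 0.24 and 0.68. Its mean of 0.036 (SE 0.31) stood at 0.46 without replicate 1, -0.065 without replicate 2 and -0.29 without replicate 3.

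GstD5 had 38.2, 158 and 277 in exposed males and 43.2, 144 and 171 in unexposed males, with a mean of 0.22 (SE 0.21). GstD3, GstD8 and GstD9 had means between -0.11 and 0.070. The other 4 Delta genes stayed below the filter. Of these, GstD10 was listed at 0, 9.21 and 3.54 in exposed males and at 0 on all 3 unexposed arrays, so no ratio is given, and GstD11 reached 120 in exposed pool 1 with 39.7 and 36.7 in exposed pools 2 and 3, against 45.8, 41.9 and 40.8 in unexposed males. GstD4 stayed at or below 51.9 and GstD7 at or below 44.3 on every array.

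GstS1, the single Sigma class enzyme, is abundant in the indirect flight muscle and acts on products of lipid peroxidation. Its signals varied little over the 6 arrays: 2301, 2438 and 2784 in exposed males and 2533, 2624 and 2639 in unexposed males. The mean log2 ratio was -0.056 (SE 0.13), and 0.051 once arrays were centred on their medians. The 4 flight muscle markers had a median log2 ratio of 0.10 in the same fit.

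The Omega class reduces disulphides and dehydroascorbate. Its members with a Gst symbol, GstO1, GstO2 and GstO3, lie close together on chromosome arm 3L. All 5 of their probe sets were tested. In exposed males, 2 of 5 were higher in pair 1 (25.2% of all), 2 of 5 in pair 2 (36.8% of all) and 5 of 5 in pair 3 (59.9% of all). GstO1 had 122, 329 and 432 in exposed males and 126, 390 and 343 in unexposed males, a mean log2 ratio of 0.013 (SE 0.16) that was -0.15 without replicate 3. The 3 probe sets of GstO2 had means of 0.10, -0.11 and 0.022 (SE 0.14, 0.18 and 0.13), so they disagreed in sign and each lay within 1 SE of 0. GstO3 had a mean of 0.027 (SE 0.13).

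The Theta class members GstT2, GstT3 and GstT4 all had means below 0, at -0.15, -0.16 and -0.11 (SE 0.16, 0.16 and 0.14). Means below 0 were found for 5817 of the 8251 probe sets tested. In exposed males, 0 of 3 were higher in pair 1 (25.2% of all), 2 of 3 in pair 2 (36.8% of all) and 1 of 3 in pair 3 (59.9% of all). The Zeta class works in the breakdown of tyrosine as maleylacetoacetate isomerase. GstZ2 had 33.5, 164 and 156 in exposed males and 34.6, 115 and 136 in unexposed males, a mean of 0.22 (SE 0.16). GstZ1 was listed at 0, 19.5 and 27.8 in exposed males and at 0, 26.3 and 27.2 in unexposed males, below the filter on each array.

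**Figure D3:**
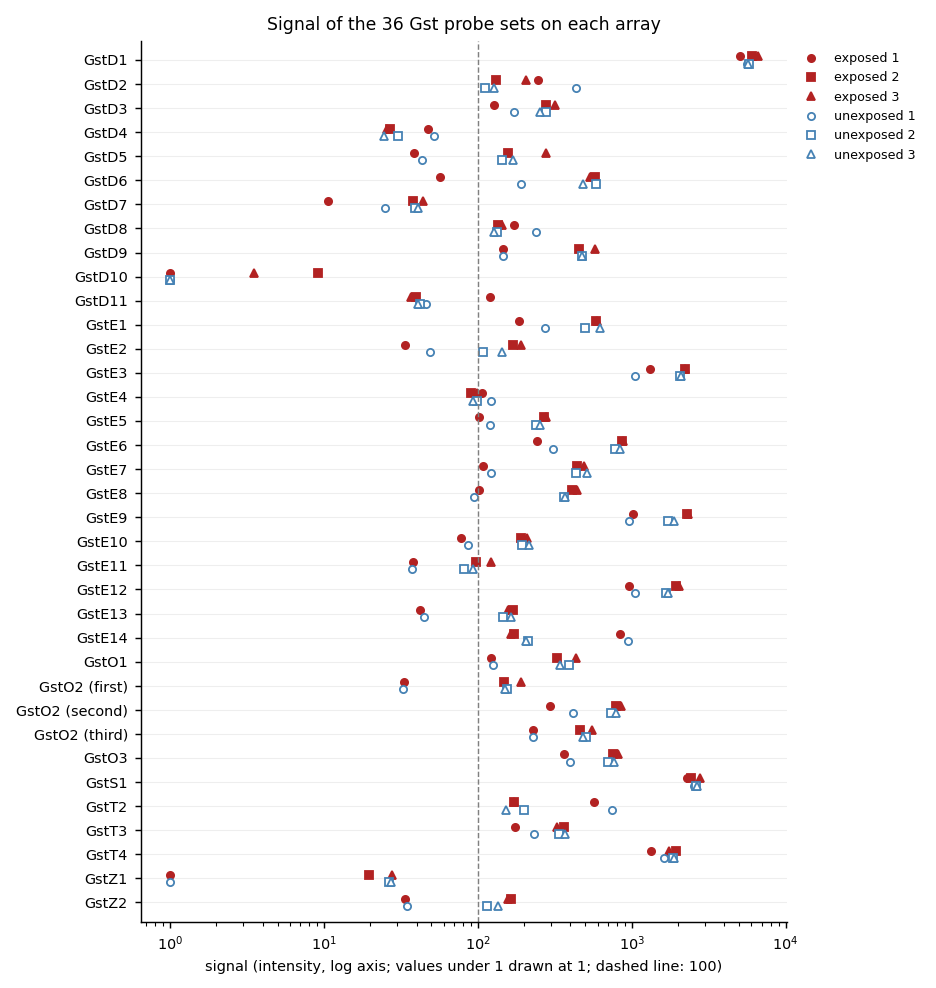
Signal (intensity, log axis, values under 1 drawn at 1) of the 36 Gst probe sets on each array, with exposed pools filled and unexposed pools open, and the filter value of 100 dashed. For most rows the circles of replicate 1 stand apart from the squares and triangles on the same side in both groups, and filled and open symbols of the same shape lie close together.

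Ugt35B1 was the member that passed an unadjusted p under 0.05. It is also known as Ugt35b, lies in a run of 10 Ugt genes on chromosome arm 3R, and has been described as a transcript enriched in the antennae. It has 2 probe sets here, called first and second in the order of their identifiers. The second had signals of 436, 1031 and 1215 in exposed males and 313, 888 and 876 in unexposed males. The exposed pool was the higher in each pair, by log2 ratios of 0.48, 0.21 and 0.47, and the groups overlapped through replicate 1. The mean log2 ratio was 0.39 (SE 0.13, limma adjusted p = 0.905). The call was lost when any replicate was left out, with mean ratios between 0.34 and 0.48.

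The first probe set of Ugt35B1 gave a similar mean from a different pattern. Its signals were 529, 106 and 94.3 in exposed males and 304, 82.0 and 96.5 in unexposed males, with log2 ratios of 0.80, 0.37 and -0.034 and a mean of 0.38 (SE 0.20). On this probe set the replicate 1 pools were the highest of the 6, whereas on the second they were the lowest. The actin control had its highest 3′ over 5′ ratios on the same 2 arrays, 17.8 in exposed males and 5.79 in unexposed males, and its part in the result was not tested.

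The other members of the 10-gene run, which includes the genes once named Ugt86Da to Ugt86Dj, had smaller differences. The run held 11 probe sets, 6 of them tested, with a median log2 ratio of 0.14. In exposed males, 5 of 6 were higher in pair 1 (25.2% of all), 3 of 6 in pair 2 (36.8% of all) and 5 of 6 in pair 3 (59.9% of all). Ugt35C1, also called Ugt86Dd and tied by genetics to nicotine resistance in larvae, had 114, 312 and 303 in exposed males and 96.9, 297 and 275 in unexposed males, a mean of 0.15 (SE 0.12). Ugt35A1 had 118, 270 and 319 in exposed males and 157, 294 and 266 in unexposed males. Its mean of -0.087 (SE 0.17) turned positive under quantile normalization (0.026), median centring (0.019) and without replicate 1 (0.071).

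Ugt302C1, once Ugt86Da, had 97.6, 248 and 306 in exposed males and 80.9, 281 and 252 in unexposed males, a mean of 0.12 (SE 0.15). Ugt303A1 had a mean of 0.029 (SE 0.15). The remaining 5 genes of the run, Ugt302E1, Ugt302K1, Ugt304A1, Ugt35E1 and Ugt35E2, did not reach 100 on any array, and the highest signal among them was 92.4 for Ugt35E2 in unexposed pool 1. In the family as a whole, 14 of 35 probe sets were below the filter.

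Other Ugt genes also lie in short runs. On chromosome arm 2L, Ugt37E1 was higher in exposed males of all 3 pairs, with 135, 99.3 and 102 in exposed males and 125, 86.1 and 96.4 in unexposed males, a mean of 0.13 (SE 0.12). Its neighbour Ugt37D1 had the lowest mean of the tested Ugt probe sets. Ugt37D1 had 337, 618 and 652 in exposed males and 449, 659 and 746 in unexposed males, a mean of -0.23 (SE 0.13, limma adjusted p = 0.905). The third gene of the run, Ugt37C2, had 26.4, 19.6 and 15.3 in exposed males and 25.2, 11.7 and 17.9 in unexposed males.

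Ugt36E1 and Ugt36D1 lie close together on the same arm. Ugt36E1, which has been linked to the response of male antennae to pheromone compounds, had 770, 245 and 240 in exposed males and 533, 216 and 228 in unexposed males. Its exposed pool was the higher in each pair, by 0.53, 0.18 and 0.075, with a mean of 0.26 (SE 0.15). Ugt36D1 had the smallest SE of the tested Ugt probe sets (0.12), and its signals of 226, 745 and 659 in exposed males and 232, 715 and 627 in unexposed males gave a mean of 0.029. The replicate 1 pools were the highest of the 6 for Ugt36E1 and the lowest for Ugt36D1.

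Among the single genes, Ugt316A1 had 67.1, 104 and 110 in exposed males and 54.9, 102 and 99.3 in unexposed males, a mean of 0.15 (SE 0.13) with the same sign in each pair. Ugt317A1 went the other way in replicate 1 than in the rest. Its signals were 892, 153 and 170 in exposed males and 653, 212 and 216 in unexposed males, with log2 ratios of 0.45, -0.47 and -0.35. Its mean was -0.12 (SE 0.22), and -0.41 without replicate 1. Ugt303B2 had 1248, 458 and 356 in exposed males and 904, 370 and 479 in unexposed males, with a mean of 0.12 (SE 0.22) and pair 3 opposite in sign to pairs 1 and 2.

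Ugt36A1 had 126, 132 and 141 in exposed males and 122, 155 and 150 in unexposed males, a mean of -0.087 (SE 0.13) that became 0.019 under quantile normalization and 0.020 under median centring. Ugt37A1 stayed below the filter, at 44.6, 47.9 and 46.5 in exposed males and 43.0, 39.1 and 45.2 in unexposed males. Both probe sets of Ugt305A1 carried their variation in pairs 2 and 3, which had opposite signs: the first gave 0.059, -0.74 and 0.50, and the second gave -0.043, -0.67 and 0.73. Ugt37A2, Ugt37B1, Ugt49B1, Ugt49C1 and Ugt301D1 had means between -0.14 and 0.12.

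**Figure D4:**
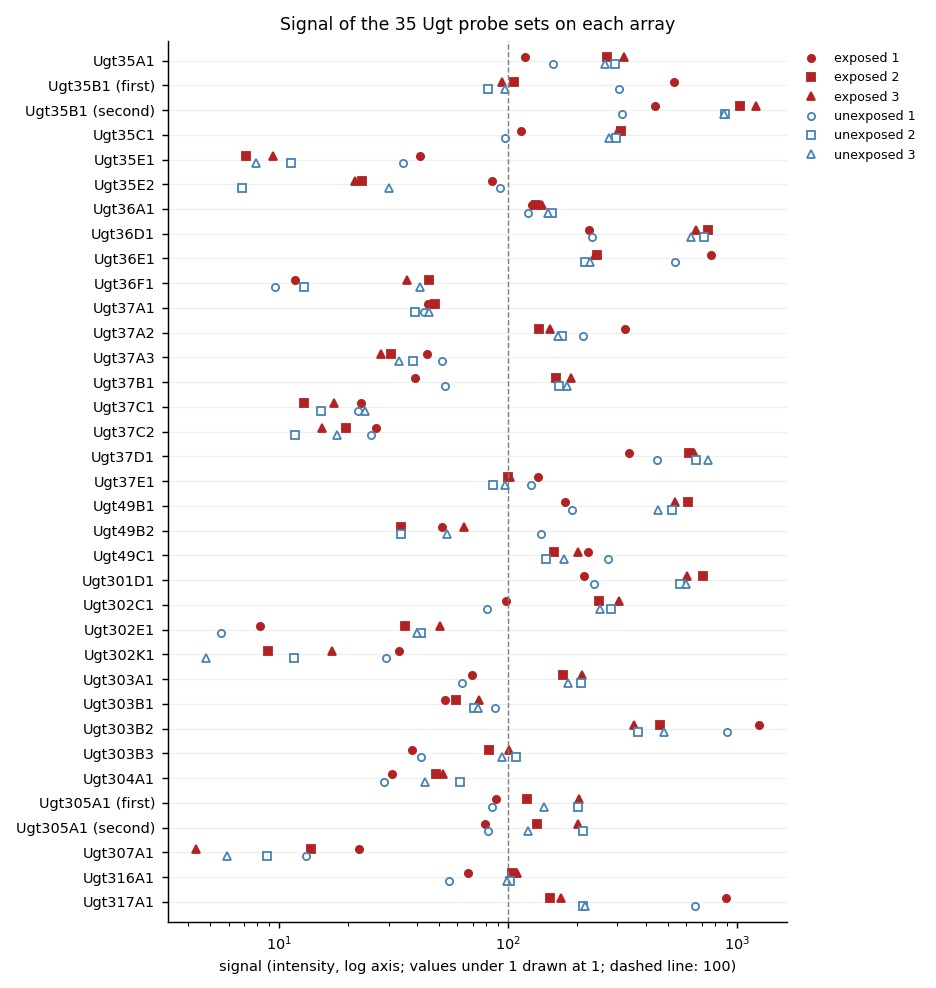
Signal (intensity, log axis) of the 35 Ugt probe sets on each array, with exposed pools filled and unexposed pools open, and the filter value of 100 dashed. The 2 probe sets of Ugt35B1 show replicate 1 (circles) on opposite sides of the other replicates in both groups.

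In both families, the distance between replicate 1 and the other replicates was far larger than that between exposed and unexposed males. The median size of the log2 ratio of exposed over unexposed males was 0.11 for tested Gst probe sets, 0.12 for Ugt probe sets and 0.13 for all. The median size of the log2 distance of replicate 1 from replicates 2 and 3 was 1.30, 1.43 and 1.10. Both replicate 1 pools were below the other 4 pools for 24 of 29 Gst and 14 of 21 Ugt probe sets (57.2% of all) and above them for 4 Gst and 7 Ugt probe sets (28.0% of all). Replicate 1 was more than 2-fold lower for 18 Gst and 10 Ugt probe sets (37.0% of all) and more than 2-fold higher for 3 Gst and 4 Ugt probe sets (18.1% of all).

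Among the tested probe sets, the highest replicate 1 signals relative to the other replicates were those of GstE14, at 4.76-fold, Ugt35B1 on its first probe set, at 4.25-fold, Ugt317A1, at 4.11-fold, and GstT2, at 3.76-fold. The lowest among them were those of GstD6, at 5.22-fold lower, and GstO2 on its first probe set, at 4.91-fold lower. Exposed pool 1 of GstD6 and both replicate 1 pools of this GstO2 probe set (32.9 and 32.4) lay below the foreign control medians of their arrays (80.1 and 81.0). These distances thus rest on signals near the floor. GstS1 and GstD1 hardly moved, with replicate 1 at 0.922 and 0.890 of the other replicates. The median log2 distance was -1.18 for Gst and -0.92 for Ugt probe sets, against -0.59 for all. Several tissue marker lists also stood apart on the replicate 1 arrays. The 7 fat body markers summed to 8965 in exposed pool 1 and 8751 in unexposed pool 1, against 5621 to 6427 in the other 4 pools. Of these markers, 3 are yolk protein genes, known as products of the female fat body and ovary. The sum is therefore not a measure of male fat body alone. In exposed and unexposed pool 1, Yp1 had 1448 and 1076, against 319 to 399 in the other 4. There apolpp had 5455 and 5825, against 4295 to 4776. The 3 Malpighian tubule markers with a probe set summed to 715 in exposed pool 1 and 660.0 in unexposed pool 1, against 1025 to 1103 in the other 4. The 5 midgut markers summed to 8085 in exposed pool 1 and 7357 in unexposed pool 1, against 8492 to 9301, and the 7 testis markers to 18974 in exposed pool 1 and 22029 in unexposed pool 1, against 14853 to 17396. These sums hide members that went opposite ways. Both replicate 1 pools were below the other 4 for 2 of 5 midgut markers and above them for 2. They were above for 6 of 7 fat body markers and below for 1, and above for 4 of 7 testis markers and below for 1. The ovary markers were also higher in both replicate 1 pools and the 3′ over 5′ control ratios were highest in exposed pool 1. The part of these lists and ratios in the distance was not tested.

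**Figure D5:**
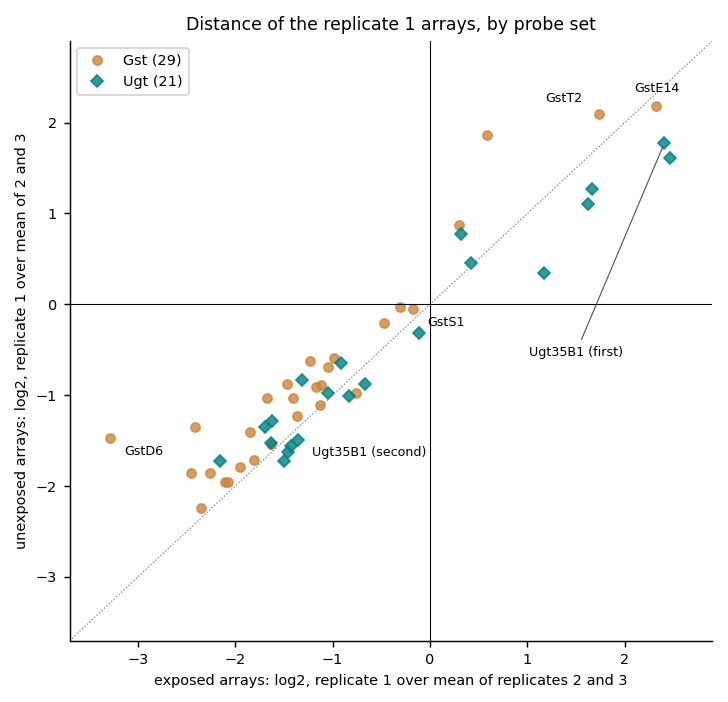
Log2 of the replicate 1 signal over the mean of replicates 2 and 3, in exposed arrays (x axis) and unexposed arrays (y axis), for the 29 Gst and 21 Ugt probe sets tested, with the line of equality dotted. Most points lie low on both axes, and the 2 probe sets of Ugt35B1 fall in opposite corners.

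The genes that supply and dispose of the substrates of these enzymes were read from the same fit. Of 29 listed genes for glutathione supply and redox partners, 19 had a probe set and 16 were tested, with a median log2 ratio of -0.028. At an unadjusted limma p under 0.05, 0 were called in either direction (2.5% of all). Ggt-1, which cleaves glutathione outside the cell, had 86.2, 475 and 455 in exposed males and 184, 497 and 482 in unexposed males, a mean of -0.41 (SE 0.25). Gclc, the catalytic subunit of the enzyme for the first step of glutathione synthesis, had 248, 306 and 343 in exposed males and 433, 357 and 353 in unexposed males, a mean of -0.36 (SE 0.19). All 3 exposed values of Gclc were below all 3 unexposed values, which was also so for 1.76% of all probe sets. Trxr1, the thioredoxin reductase that in flies also serves to keep glutathione reduced, had a mean of -0.27 (SE 0.16), and Mgstl, a microsomal transferase, had 0.19 (SE 0.21).

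For UDP-sugar supply, 8 of 9 listed genes had a probe set and 7 were tested, with a median log2 ratio of 0.081. At an unadjusted limma p under 0.05, 0 were called in either direction (2.5% of all). Pgm1, phosphoglucomutase, had 1478, 2341 and 2261 in exposed males and 1192, 2148 and 1952 in unexposed males, a mean of 0.22 (SE 0.12), with the exposed pool higher in each pair. Galt, mmy and Hex-C, which feed galactose, N-acetylglucosamine and glucose into nucleotide sugars, had means of 0.11, 0.088 and 0.081. UGP, which makes UDP-glucose itself, had 0.057 (SE 0.12).

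Of 7 transporters listed for export of conjugates, 5 were tested, with a median log2 ratio of -0.19. Whether each of them, the Mdr genes included, carries conjugates was not tested. At an unadjusted limma p under 0.05, 2 were called lower in exposed males (2.12% of all), and neither call was kept without the replicate block or without replicate 2. Mdr49, a P-glycoprotein type transporter, had 29.8, 199 and 188 in exposed males and 48.4, 263 and 239 in unexposed males, a mean of -0.48 (SE 0.14, limma adjusted p = 0.905). Both replicate 1 signals of Mdr49 lay below the foreign control medians of their arrays (80.1 and 81.0). Mrp5 had 85.8, 127 and 147 in exposed males and 120, 197 and 170 in unexposed males, a mean of -0.44 (SE 0.14, limma adjusted p = 0.905). The pools of each pair differed in the same direction for both genes, and the groups overlapped for both. MRP and Mdr50 had means of -0.19 and -0.12.

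Of 11 listed regulators of detoxification genes, 6 were tested, with a median of -0.067. At an unadjusted limma p under 0.05, 1 was called lower (2.12% of all). This was cnc, whose long isoform is the fly counterpart of Nrf2 and drives Gst genes under oxidative stress. It had 162, 350 and 400 in exposed males and 235, 488 and 463 in unexposed males, a mean log2 ratio of -0.41 (SE 0.14, limma adjusted p = 0.905). The groups overlapped for cnc, and whether its probe set measures the long isoform was not tested. GstD1, a known target of cnc, had a mean of 0.040 in the same fit, and a link between cnc and GstD1 was not tested. Over the 34 genes of the 4 lists that were tested, 3 were called lower at that level (2.12% of all) and 0 higher (0.376% of all). The count of lower calls was 0 without the replicate block, 0 without replicate 2, and 1 under Cyber-T and under median centring. The median over the 34 genes was -0.044, and it was 0.037 under quantile normalization and 0.062 under median centring.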

How the data were processed

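RNA from 3 pools of exposed and 3 pools of unexposed males was hybridised to 6 arrays. The authors deposited 1 linear intensity for each probe set on each array. GCOS 1.2 is the tool in the submitters' processing notes; for the scaling target, the value was not given in the sources used here. No file holds a read depth, so the number of arrays limits the precision. All 6 value columns were mapped to samples, and 0 were left over.

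Of 14010 rows, 44 control probe sets were left out. Probe sets were named from the platform annotation, with symbols updated through RefSeq gene tables: 12443 matched 1 gene, 327 matched several and 1196 matched none here. RefSeq also gave which genes neighbour each other, and members of a run or cluster could have other genes between them. No sequences were used.

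Signals under 1 were set to 1, log2 was taken, and probe sets whose signal reached 100 on 3 or more arrays were fitted with limma 3.58.1 (lmFit, eBayes) in R 4.3.3, with the replicate number as a block, since the study collected and analysed its groups in parallel and used a paired test. Members were read from this fit over all probe sets and p-values were adjusted over all 8251. To check the pairing, the deviation of each array from its group mean was correlated with that of its partner, which gave 0.844, 0.760 and 0.780 for pairs 1 to 3, and -0.332 for replicates 2 and 3 alone. Each group mean holds replicate 1, so its distance from the other replicates enters the values of all 3 pairs. The value without replicate 1 is negative and does not show that replicates 2 and 3 are paired. Their pairing rests on the study's description and the replicate numbers. The code was tested on simulated data. The alternatives were no block, replicate 1 as a batch, no filter or a filter of 50, a floor of 50, 32 added, quantile normalization, median centring, an intensity trend, the methods' Cyber-T paired test, written anew (window 101, 10 prior observations, settings not named in the sources used here), and leaving out each replicate.

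The members and lists were chosen with earlier results of these data known. Members were named with every value where they passed an unadjusted p under 0.05, had a mean of at least 0.3 in size with 1 direction in all pairs, had the highest or lowest mean or smallest SE of a family, had a signal under 1, or stood in a list of well-studied members, and up to 4 genes were named from each pathway list. GstE2, GstE3, GstE8, GstE11, GstE14, GstD5, GstD11 and GstZ2 were given beyond this rule after their values were seen. So were Ugt35C1, Ugt36E1, Ugt37C2, Ugt37E1, Ugt303B2, Ugt305A1, Ugt316A1, Ugt317A1 and UGP. Probe sets of closely related members may cross-hybridise, which was not tested.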

Additional observations from a re-analysis of the deposited data

How the results depend on the processing

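No alternative gave a member of either family an adjusted p under 0.05. Counts below are at an unadjusted p under 0.05. Without the replicate block, the counts were 0 Ugt probe sets higher, 0 pathway genes lower, and 0 higher and 10 lower among all probe sets. In this balanced design, leaving out the block cannot change a ratio or a family median. With the replicate 1 arrays as a batch, 1 Gst probe set was lower (GstE14, -0.26), and among all probe sets 75 were higher and 392 lower. With no filter, 0 Ugt probe sets were higher, and among all probe sets 76 were higher and 297 lower. Quantile normalization gave 1 Gst probe set higher (GstE8, 0.31), a Gst median of 0.12 against 0.018, a Ugt median of 0.15 against 0.055, and 146 higher and 120 lower among all, against 31 and 175. Median centring gave 1 Gst probe set higher (GstE9, 0.37), a Gst median of 0.12, a Ugt median of 0.16, 1 pathway gene lower, and 127 higher and 102 lower among all, and it shifted the median of all probe sets to 0.021, against -0.086. Cyber-T gave 1 pathway gene lower and 281 lower among all. The cause of these shifts was not tested.

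With each replicate left out, Gst probe sets higher numbered 0 to 1 (GstE2, 0.53, without replicate 1), Ugt probe sets higher 0 to 0, Ugt probe sets lower 0 to 1 (Ugt317A1, -0.41, without replicate 1), pathway genes lower 0 to 3, and among all probe sets 14 to 128 were higher and 97 to 255 lower. Log2 ratios then ranged from -0.043 to 0.13 for GstD1, from -0.29 to 0.46 for GstD2, from -0.90 to 0.057 for GstD6, from -0.30 to 0.091 for GstE1, from -0.15 to 0.14 for GstO1 and from -0.26 to 0.071 for Ugt35A1. Signs also turned for GstE10 (0.028 under quantile normalization, 0.025 under median centring), Ugt35A1 (0.026 and 0.019), Ugt36A1 (0.019 and 0.020) and GstS1 (0.051 under median centring). Of all tested members, 5 Gst and 3 Ugt means changed sign under quantile normalization and 7 and 3 under median centring. The call of Ugt35B1 was kept with replicate 1 as a batch and under both normalizations (0.39, 0.45 and 0.50), and lost without the replicate block and without the filter.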
